A study of Arabidopsis thaliana with 18 samples.

Results

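HCT and BGLU45 are genes of the pathway that makes lignin precursors, and their signals are described here across cotyledons of wild-type Arabidopsis thaliana and bes1 mutants before and after vascular-inducing culture. They are the probe sets that the platform annotation maps to a single gene with either symbol. Each gene had 1 probe set, so the members are 2 of 38408 probe sets, or 2 of the 16722 with a single named gene. Both genes were taken to have been chosen on their low signal in cultured bes1-1 against WT. Every value of theirs that rests on the arrays at 72 h is hence a description with no test. The induction of bes1-3 is the exception.

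Lignin stiffens the secondary walls of water-conducting xylem vessels and is polymerised from phenylpropanoid alcohols, the monolignols. HCT encodes hydroxycinnamoyl-CoA:shikimate hydroxycinnamoyltransferase, a BAHD acyltransferase. It joins p-coumaroyl-CoA to shikimate, and the ester is the substrate of the next ring hydroxylation on the way to guaiacyl and syringyl units. BGLU45 encodes a family 1 glycoside hydrolase that releases monolignols from their glucosides, the form in which they can be stored. BGLU46 has this activity too, and BGLU47 groups with both by sequence. The opposite reaction, glucosylation, is carried out by UGT72 glycosyltransferases.

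The groups were wild-type Col plants (WT) and 2 mutants with T-DNA insertions, bes1-1 and bes1-3, each at 0 h and at 72 h of VISUAL, a culture in which cells of excised leaves are induced to become vascular cells. Cotyledons came from plants 6 days old, and the medium shared by every 72 h group held 1.25 mg/L 2,4-D (an auxin), 0.25 mg/L kinetin (a cytokinin) and 10 µM bikinin (an inhibitor of GSK3-like kinases). The gene BES1, which encodes a transcription factor that acts downstream of brassinosteroids, was hit by the insertions. Its own signal was not analysed here, so the genotypes were not checked on it. Each of the 6 groups had 3 arrays, numbered replicates 1 to 3. Whether replicates were independent plants or cultures is not stated in the labels. The p-values hence reflect the spread among these arrays, and that spread may be technical.

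The median log2 signal was lower on the 6 arrays of replicate 1 (5.19 to 5.46) than on the 12 others (5.91 to 6.25). As every group had 1 array of each number, this offset did not follow genotype or time. Mesophyll markers, 3 of 8 measured, averaged 10.65 to 11.48 over the 0 h arrays and 7.38 to 9.42 over the 72 h arrays. In these whole cotyledons, fewer cells of a type and less RNA per cell cannot be told apart.

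HCT (AT5G48930) had nearly the same signal in every group before culture. On the WT arrays at 0 h it read 10.05, 10.26 and 10.26, in log2 signal in the order of replicates 1 to 3, as in all series of values that follow. The bes1-1 arrays read 10.02, 10.15 and 10.31, and the bes1-3 arrays read 9.73, 9.95 and 10.48. The 3 groups overlapped, and bes1-3 was the most variable, with a mean of 10.05 ± 0.39 (SD, n = 3) against 10.19 ± 0.12 in WT and 10.16 ± 0.15 in bes1-1.

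After 72 h of culture the genotypes stood in a clear order for HCT. The WT arrays read 11.51, 11.81 and 11.81, with a mean of 11.71 ± 0.17 (SD, n = 3). The bes1-3 arrays read 10.64, 10.97 and 10.89, with a mean of 10.83 ± 0.17. The bes1-1 arrays read 10.01, 10.16 and 10.31, with a mean of 10.16 ± 0.15. No array of one genotype overlapped those of another at 72 h, and the lowest bes1-3 array lay above the highest bes1-1 array. The bes1-1 arrays at 72 h lay within the range of the 0 h arrays, so over the 6 groups the levels ran from WT at 72 h, through bes1-3 at 72 h, to the 4 remaining groups, which overlapped each other.

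BGLU45 (AT1G61810) was near the lower end of the signal range before culture. On the WT arrays at 0 h it read 3.48, 3.42 and 4.58. The bes1-1 arrays read 2.90, 2.97 and 3.37, and the bes1-3 arrays read 2.98, 4.11 and 4.25. The group means of 3.83, 3.08 and 3.78 stood beside mean lower quartiles of the same arrays of 3.81, 3.81 and 3.83. The WT mean was level with that quartile and both mutant means were below it, so BGLU45 was not shown to be above background at 0 h. Its differences from 0 h therefore depend on signal that may be background, and their true size is uncertain.

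At 72 h BGLU45 had left this range in all 3 genotypes. The WT arrays read 7.36, 9.54 and 9.00, with a mean of 8.64 ± 1.13 (SD, n = 3). The bes1-3 arrays read 5.11, 6.74 and 6.30, with a mean of 6.05 ± 0.84. The bes1-1 arrays read 4.71, 5.32 and 5.92, with a mean of 5.32 ± 0.60. Every WT array was above every mutant array, while the mutants overlapped each other. All 9 arrays at 72 h were above all 9 arrays at 0 h, whereas HCT in cultured bes1-1 overlapped its 0 h arrays. Within a genotype 13.3% of all probe sets in WT, 17.9% in bes1-1 and 16.5% in bes1-3 lay wholly higher at 72 h. The share for 9 arrays against 9 is not given.

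**Figure D1:**
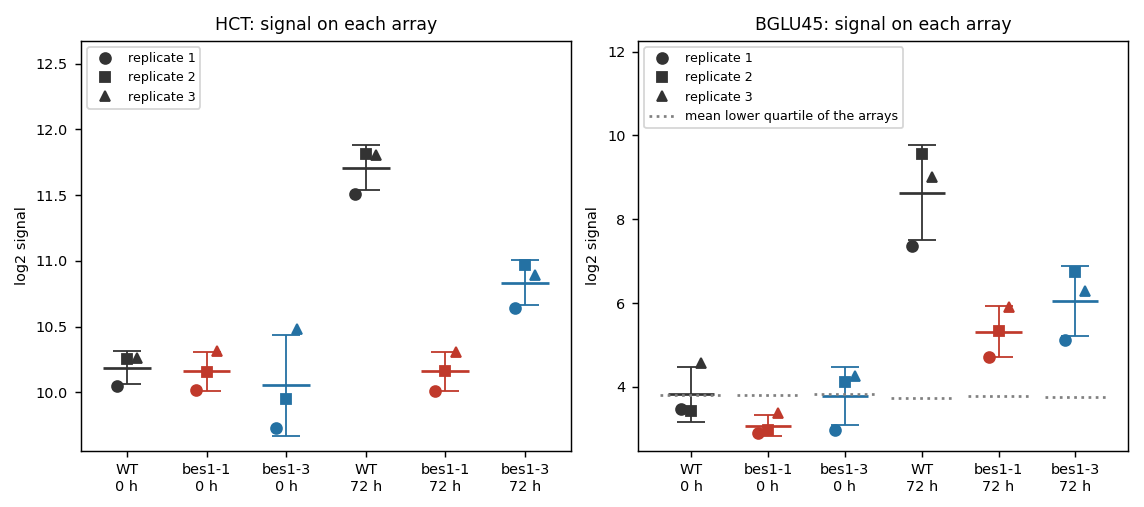
Log2 signal of HCT (left) and BGLU45 (right) on each of the 18 arrays, by genotype and time; symbols mark the replicate number, bars the mean ± SD of 3 arrays and, for BGLU45, dotted lines the mean lower quartile of the arrays. HCT in cultured bes1-1 (mean 10.16) sits among the 0 h groups, while BGLU45 at 72 h is above every 0 h array in each genotype.

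The induction compares 72 h with 0 h within a genotype and shows how each gene responded to culture. In bes1-3 both genes rose. Its arrays took no part in the contrast from which the genes were taken to come. Whether the bes1-3 arrays at 72 h were also looked at in that choice is not known. The tests below may therefore not be independent of it. HCT rose by 0.78 ± 0.21 (SE) on the log2 scale (limma, adjusted p = 0.0143), and with the replicate number as a block the adjusted p was 9.43e-05. BGLU45 rose by 2.27 ± 0.56 (limma, adjusted p = 0.00705). Of all probe sets, 10.3% were called higher in this comparison at an adjusted p below 0.05, so a rise as such was common. The HCT differences between same-numbered arrays were 0.91, 1.02 and 0.41, and those of BGLU45 were 2.13, 2.64 and 2.05.

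The HCT call in bes1-3 was close to the threshold. With each array centred on its median the difference was 0.62 and the adjusted p 0.0742, and with the bes1-3 arrays fitted alone the adjusted p was 0.126. It was also lost without replicate 1 or replicate 2 of bes1-3 at 0 h (adjusted p = 0.0723 and 0.0568) and without replicate 2 or replicate 3 of bes1-3 at 72 h (adjusted p = 0.0623 and 0.0534), all in limma fits. The BGLU45 call held without each of the 6 arrays in turn, with adjusted p from 0.00311 to 0.0427.

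In WT the HCT signal at 72 h was 1.52 ± 0.21 (SE) above that at 0 h on the log2 scale, a description with no test. The same-numbered differences of 1.46, 1.56 and 1.54 were close to each other. In bes1-1 the difference was -0.0006 ± 0.21, and the same-numbered differences were -0.0065, 0.0099 and -0.0052. Each cultured bes1-1 array thus read almost the same as the uncultured array of its number, on the deposited scale. With each array centred on its median the bes1-1 difference was -0.28, because that centring moved the median of all probe sets in this comparison from 0.03 to -0.24.

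BGLU45 at 72 h was 4.81 ± 0.56 (SE) above its 0 h signal in WT, with same-numbered differences of 3.89, 6.12 and 4.42. In bes1-1 the difference was 2.24 ± 0.56, with same-numbered differences of 1.81, 2.35 and 2.55. The bes1-1 and bes1-3 values of 2.24 and 2.27 were within their errors of each other, whereas for HCT the bes1-1 value lay near 0 and the bes1-3 value at 0.78. Arrays at 72 h and 0 h did not overlap for BGLU45 in any genotype, nor for HCT in WT and bes1-3. Non-overlap in the higher direction held for 13.3% of all probe sets in WT, 17.9% in bes1-1 and 16.5% in bes1-3. Within replicates 2 and 3 alone, the HCT differences were 1.55 in WT, 0.0024 in bes1-1 and 0.72 in bes1-3, and those of BGLU45 were 5.27, 2.45 and 2.34.

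The difference in induction, the mutant's minus that of WT, was -1.52 ± 0.30 (SE) for HCT in bes1-1 and -0.74 ± 0.30 in bes1-3, on the log2 scale and with no test. For BGLU45 it was -2.57 ± 0.79 in bes1-1 and -2.54 ± 0.79 in bes1-3. Both mutants share the WT arrays in these values. Of all probe sets 0.0521% were called in limma for bes1-1 and 0% for bes1-3, or 8.33% and 1.12% with the replicate block.

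**Figure D2:**
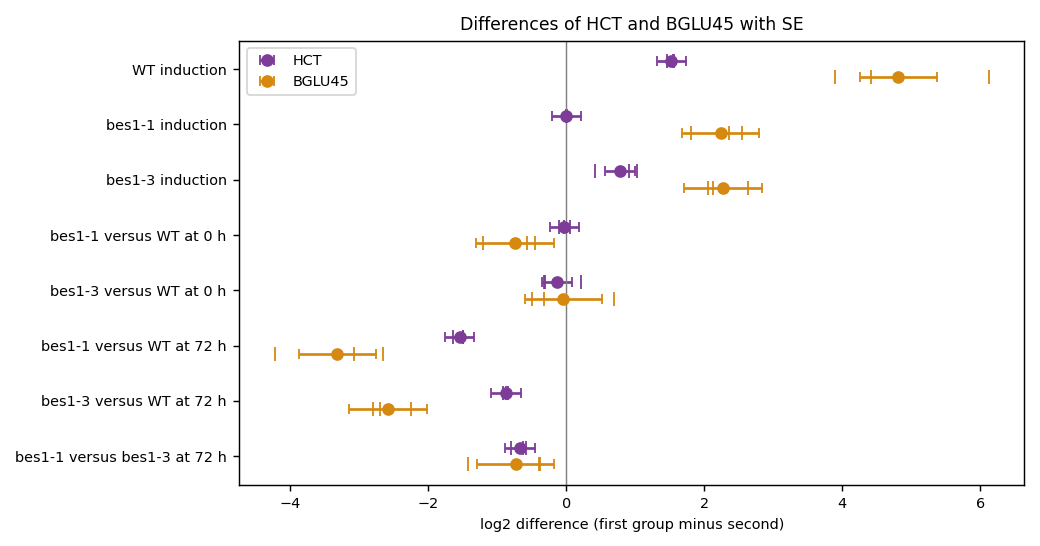
Log2 differences of HCT and BGLU45 in 8 comparisons, first group minus second; points with bars are the fitted difference ± SE and the ticks the differences between same-numbered arrays. HCT in the bes1-1 induction lies at 0 while all other inductions lie to the right, and both genes lie to the left in each mutant against WT at 72 h.

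Before culture neither gene separated the mutants from WT by the test. HCT differed by -0.03 ± 0.21 (SE) on the log2 scale in bes1-1 and by -0.14 ± 0.21 in bes1-3. BGLU45 differed by -0.74 ± 0.56 in bes1-1, or -0.37 without WT replicate 3, and by -0.05 ± 0.56 in bes1-3. Neither gene was called in limma (adjusted p = 1.00 for each of the 4 values), and neither had an unadjusted p under 0.05 in either comparison. Few probe sets of any kind were called at 0 h, 0.0208% for bes1-1 and 0.00781% for bes1-3. The bes1-1 arrays were all below the WT arrays for BGLU45, and 2.97% of all probe sets lay wholly lower in the same way. The sign of the HCT difference in bes1-1 turned with the scaling, to 0.039 after median centring.

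At 72 h the mutants are compared with WT, the comparison in which these genes were taken to have come to notice. The values are therefore a description. The log2 difference of HCT from WT was -1.55 ± 0.21 (SE) in bes1-1, with same-numbered differences of -1.50, -1.65 and -1.50. In bes1-3 the log2 difference was -0.88 ± 0.21, with same-numbered differences of -0.87, -0.84 and -0.91. BGLU45 differed from WT by -3.32 ± 0.56 in bes1-1 and by -2.59 ± 0.56 in bes1-3. Its same-numbered differences spread more, from -4.22 to -2.65 in bes1-1 and from -2.80 to -2.25 in bes1-3. The mutant and WT arrays did not overlap in any of these 4 cases, where 4.57% of all probe sets lay wholly lower in bes1-1 and 3.28% in bes1-3.

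The mutant alleles differed from each other in HCT more evenly than in BGLU45. The log2 difference of bes1-1 from bes1-3 at 72 h was -0.67 ± 0.21 (SE) for HCT, with same-numbered differences of -0.63, -0.81 and -0.59. Those groups did not overlap, as for 1.46% of all probe sets in the lower direction. For BGLU45 it was -0.73 ± 0.56, with same-numbered differences of -0.40, -1.42 and -0.38, and the groups overlapped. This value ran from -1.20 without replicate 1 to -0.39 without replicate 2 of bes1-3, and was -0.43 without replicate 1 of bes1-1.

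Markers of other cell types moved with culture. All 3 measured mesophyll markers were called lower and both measured procambium markers, 2 of 6, were called higher in the induction of each genotype, where 8.7% to 10.9% of all probe sets were called higher and 9.76% to 11.4% lower. Of 3 measured phloem markers, out of 8, 2 were higher and 1 lower in each genotype, and of 3 measured epidermis and stomata markers, out of 6, those lower numbered 2 in WT, 3 in bes1-1 and 2 in bes1-3. At 72 h the procambium mean was 9.80 to 10.55 on WT arrays, 9.87 to 10.95 on bes1-1 arrays and 9.55 to 10.71 on bes1-3 arrays, and the mesophyll mean was 7.88 to 8.54, 7.38 to 9.42 and 7.58 to 8.18. The phloem mean was 6.44 to 7.21, 6.40 to 7.93 and 6.55 to 7.84, and the epidermis and stomata mean was 4.13 to 5.34, 3.68 to 4.45 and 3.55 to 4.35, in the same order. These ranges overlapped between genotypes, unlike those of HCT. None of these 11 markers was called between a mutant and WT at 72 h in limma. At an unadjusted p under 0.05, 1 phloem and 1 epidermis and stomata marker were lower in bes1-1 and 1 of the latter in bes1-3. Of all 38408 probe sets, 3286 passed for bes1-1 and 1957 for bes1-3, in either direction. With the replicate block 2 epidermis and stomata markers were lower in each mutant and 1 phloem marker was higher and 1 lower in bes1-1. The 3 measured of 19 genes of secondary wall cellulose and xylan synthesis averaged 9.57 to 10.61 on WT arrays, 8.61 to 9.72 on bes1-3 arrays and 7.12 to 8.85 on bes1-1 arrays at 72 h. Of 10 xylem markers only IRX15 and IRX15-L, which are among those 3, were measured. The part of cell composition in the HCT and BGLU45 values was not tested.

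BGLU47, the relative of BGLU45 by sequence, showed a similar pattern from a similar baseline. Its WT arrays read 3.10, 4.35 and 4.33 at 0 h and 9.13, 9.19 and 9.16 at 72 h. At 72 h the bes1-1 arrays read 7.03, 8.06 and 7.04 and the bes1-3 arrays read 7.07, 7.88 and 6.94. Both mutants lay wholly below WT and overlapped each other. Over all probe sets 4.57% lay wholly lower in bes1-1 and 3.28% in bes1-3. BGLU47 rose by 5.23 ± 0.37 (SE) in WT (limma, adjusted p = 1.18e-07), by 3.32 ± 0.37 in bes1-1 (adjusted p = 1.01e-05) and by 3.03 ± 0.37 in bes1-3 (adjusted p = 1.67e-05).

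At 72 h BGLU47 was lower than in WT in bes1-1, with a log2 difference of -1.78 ± 0.37 (SE) (limma, adjusted p = 0.0362). This call was lost when only the compared groups were fitted (adjusted p = 0.206). In bes1-3 the log2 difference was -1.86 ± 0.37 (adjusted p = 0.0879), and with the replicate number as a block it was called (adjusted p = 0.00668). The difference of bes1-1 from bes1-3 was 0.08 for BGLU47, against -0.73 for BGLU45.

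BGLU46, the gene next to BGLU45 among protein-coding genes of the TAIR10.1 gene table, behaved differently. All its group means, from 2.47 to 3.75, were below the mean lower quartile of their arrays. It was called in none of the 8 comparisons of genotype or time in limma, the nearest being the bes1-3 induction at -1.12 ± 0.61 (adjusted p = 0.245, or 0.00121 with the replicate block). The same table places 2 long noncoding RNA loci, AT1G08433 and AT1G08437, over the span of BGLU45 and none over HCT. It also has 1 locus of another kind, AT4G21770, that overlaps BGLU47. The positions and strand of the probes are not given. A part of the BGLU45 or BGLU47 signal could therefore not be assigned between each gene and the loci that overlap it.

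Of the 21 other measured BGLU genes, out of 39, 6 rose and 3 fell in the WT induction (28.6% and 14.3%, where 8.7% and 10.8% of all probe sets were called higher and lower). The median log2 difference was -0.11, against -0.03 over all probe sets. With the replicate block 7 rose and 6 fell, where 18.9% and 20.8% of all probe sets did. BGLU33 and BGLU41 rose by 4.48 ± 0.35 (SE) and 4.04 ± 0.28 on the log2 scale in WT. BGLU28, which hydrolyses glucosinolates under sulfur deficiency, rose by 3.71 ± 0.42, and BGLU15, which breaks down flavonol glycosides, by 3.05 ± 0.25. BGLU25 rose by 2.20 ± 0.28. BGLU44 fell by 3.00 ± 0.30, the largest of the 3 falls. The other 2 were BGLU22 and BGLU36, at -1.09 ± 0.29 and -0.88 ± 0.27, both with group means below the lower quartile in all 6 groups.

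In bes1-1, 6 of the 21 rose and 2 fell over 72 h, where 10.9% and 9.76% of all probe sets were called higher and lower, and 8 rose and 3 fell with the replicate block, against 28.5% and 21.9%. The median log2 difference was -0.09, against 0.03 over all probe sets. In bes1-3, 6 rose and 3 fell with a median of -0.26, where 10.3% and 11.4% were called, and 6 rose and 5 fell with the replicate block, against 24.2% and 21.3%. BGLU28 rose by 5.86 ± 0.42 (SE) in bes1-1 and by 6.20 ± 0.42 in bes1-3. BGLU33 rose by 3.08 ± 0.35 and BGLU41 by 2.68 ± 0.28 in bes1-1, while in bes1-3 they rose by 4.35 ± 0.35 and 3.58 ± 0.28. BGLU16 fell by 1.59 ± 0.37 in bes1-1 and by 1.13 ± 0.37 in bes1-3, and BGLU40 fell by 0.86 ± 0.29 in bes1-3.

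Between genotypes at 72 h few of the family were called. In bes1-1, 1 of the 21 was higher than WT and 1 lower, BGLU44 and BGLU47, where 0.245% and 0.599% of all probe sets were called; with the replicate block 1 was higher and 5 lower, against 7.14% and 6.3% of all probe sets. BGLU44 read 9.07, 9.04 and 9.17 in WT and 10.16, 11.42 and 11.11 in bes1-1. It was higher than in WT by 1.80 ± 0.30 (SE) on the log2 scale (limma, adjusted p = 0.0106), a call lost when only the compared groups were fitted (adjusted p = 0.230). In bes1-3 none of the 21 was called in limma, where 0.0729% of all probe sets were called lower. At an unadjusted p under 0.05, 4 were higher and 2 lower, where 1957 of all 38408 probe sets passed in either direction. With the replicate block 1 was lower, against 3.46% of all probe sets.

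**Figure D3:**
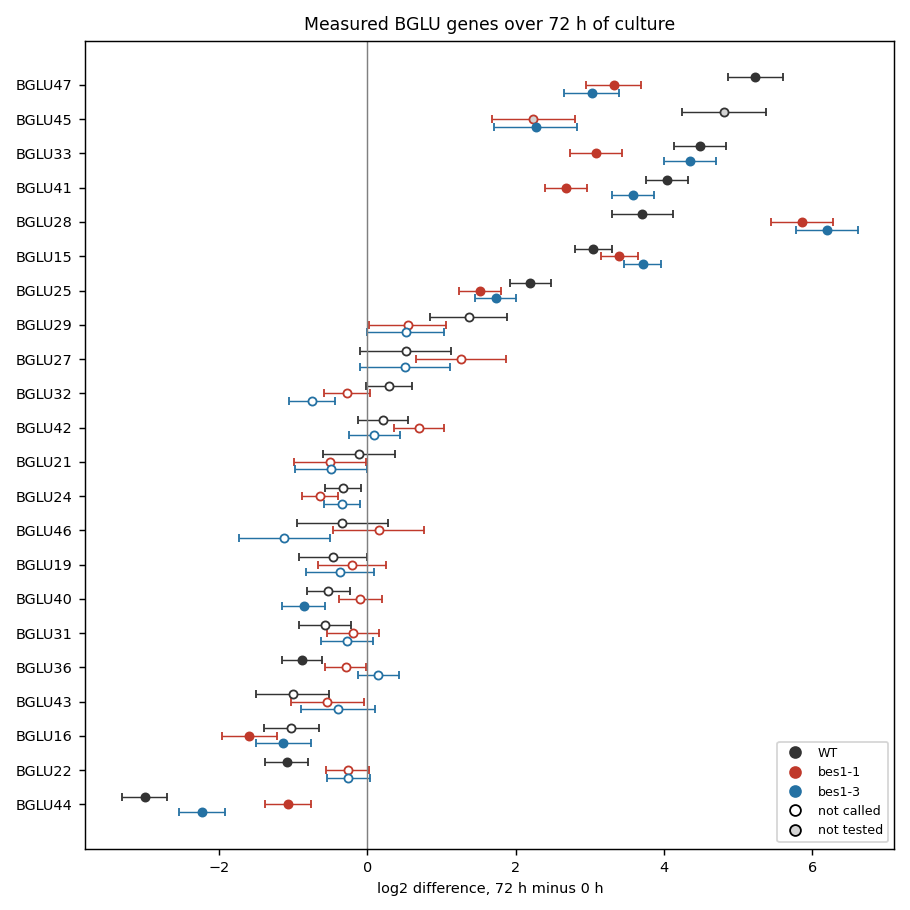
Log2 difference between 72 h and 0 h ± SE for BGLU45 and the 21 other measured BGLU genes in WT, bes1-1 and bes1-3; filled points were called, open points were not, and grey points were not tested. BGLU47, BGLU45, BGLU33 and BGLU41 lie furthest right in WT, and in bes1-1 each of them lies to the left of its WT point.

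Few other genes of monolignol synthesis had a named probe set. Of 28 listed monolignol synthesis genes 3 were measured besides HCT, and none of the 28 listed regulators. CCR2, a cinnamoyl-CoA reductase linked to defence, rose by 1.16 ± 0.36 (SE) in bes1-1 (limma, adjusted p = 0.0313) and fell by 1.28 ± 0.36 in bes1-3 (adjusted p = 0.0166). In WT its log2 difference was -0.81 ± 0.36 (adjusted p = 0.155, or 0.0259 with the replicate block). CCR2 read 4.84, 5.17 and 5.71 in bes1-1 at 0 h, all below 6.69, 7.50 and 7.89 in WT. The group means were 5.24 and 7.36, and 2.97% of all probe sets lay wholly lower in this comparison. CCR2 was not called in the main limma fit but had an unadjusted p under 0.05, as did 893 of 38408 probe sets. It was the only 1 of the 21 lignin-related genes to do so. With the replicate block, and with each of the 3 other scalings, 1 of these 21 was called lower. At 72 h the genotypes overlapped for CCR2. REF1, an aldehyde dehydrogenase that makes ferulic and sinapic acid, and F5H2, a relative of ferulate 5-hydroxylase, were not called in any induction, with log2 differences from -0.68 to -0.13. With the replicate block REF1 was lower in bes1-3, at -0.68 (adjusted p = 0.00530).

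Among the enzymes that add glucose to monolignols, the direction was down where a test was passed. Over all probe sets 10.8% were called lower in WT, 9.76% in bes1-1 and 11.4% in bes1-3. With the replicate block these shares were 20.8%, 21.9% and 21.3%. UGT72B3 fell by 1.96 ± 0.42 (SE) in WT and 1.72 ± 0.42 in bes1-1, and was also called lower in bes1-3 (adjusted p = 0.00140). UGT72E1 fell by 1.74 ± 0.38 in bes1-1 and 1.72 ± 0.38 in bes1-3, and in WT its log2 difference was -1.13 ± 0.38 (limma, adjusted p = 0.0506, or 0.00657 with the replicate block). UGT72B1 fell by 0.78 ± 0.24 in bes1-1 and 1.11 ± 0.24 in bes1-3. UGT72E2 and UGT72E3 were below the mean lower quartile of the arrays in all 6 groups and were not called.

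Of the 11 measured genes of lignin polymerisation, out of 24, 3 rose and 2 fell in WT, 4 rose and 2 fell in bes1-1, and 5 rose and 3 fell in bes1-3. The shares called higher and lower over all probe sets were 8.7% and 10.8%, 10.9% and 9.76%, and 10.3% and 11.4%. With the replicate block 5 rose and 3 fell in every genotype, so the counts then did not differ between genotypes. All but LAC16, a laccase, encode class III peroxidases. PRX72, which acts in lignification, rose by 6.31 ± 0.64 (SE) in WT (limma, adjusted p = 2.93e-06), by 3.45 ± 0.64 in bes1-1 (adjusted p = 9.87e-04) and by 4.17 ± 0.64 in bes1-3 (adjusted p = 1.43e-04). PRX66, a peroxidase of differentiating vessels, rose by 4.64 ± 0.37, 3.35 ± 0.37 and 4.03 ± 0.37, and PRX17 rose by 2.54 ± 0.26, 3.09 ± 0.26 and 2.67 ± 0.26. PRX71 fell by 4.24 ± 0.47, 2.43 ± 0.47 and 3.92 ± 0.47, and PRX47, also active in vessels, fell by 3.38 ± 0.25, 3.39 ± 0.25 and 4.16 ± 0.25. For PRX52 the bes1-1 rise was 3.26 ± 0.63 and the bes1-3 rise 1.98 ± 0.63, and its WT log2 difference was 1.52 ± 0.63 (adjusted p = 0.115, or 0.00352 with the replicate block). PRX25 rose by 1.30 ± 0.39 and PRX42 fell by 1.23 ± 0.28 in bes1-3. In WT and bes1-1 the PRX25 log2 differences were 0.81 and 1.11 (adjusted p = 0.196 and 0.0584, or 0.00942 and 0.00113 with the replicate block), and those of PRX42 were -0.83 and -0.63 (adjusted p = 0.0508 and 0.136, or 9.07e-05 and 8.46e-04 with the block).

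The PRX72 values show where it stood beside BGLU45. At 72 h its WT arrays read 9.81, 11.69 and 11.12, the bes1-1 arrays 6.54, 8.06 and 8.73, and the bes1-3 arrays 7.95, 9.53 and 9.17. Both mutants were wholly below WT and overlapped each other, as for BGLU45. Of all probe sets 4.57% lay wholly lower in bes1-1 and 3.28% in bes1-3. PRX72 was lower than in WT in bes1-1, with a log2 difference of -3.10 ± 0.64 (SE) (limma, adjusted p = 0.0350), a call lost when only the compared groups were fitted (adjusted p = 0.265). In bes1-3 the log2 difference was -1.99 ± 0.64 (adjusted p = 0.504, or 0.00189 with the replicate block).

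**Figure D4:**
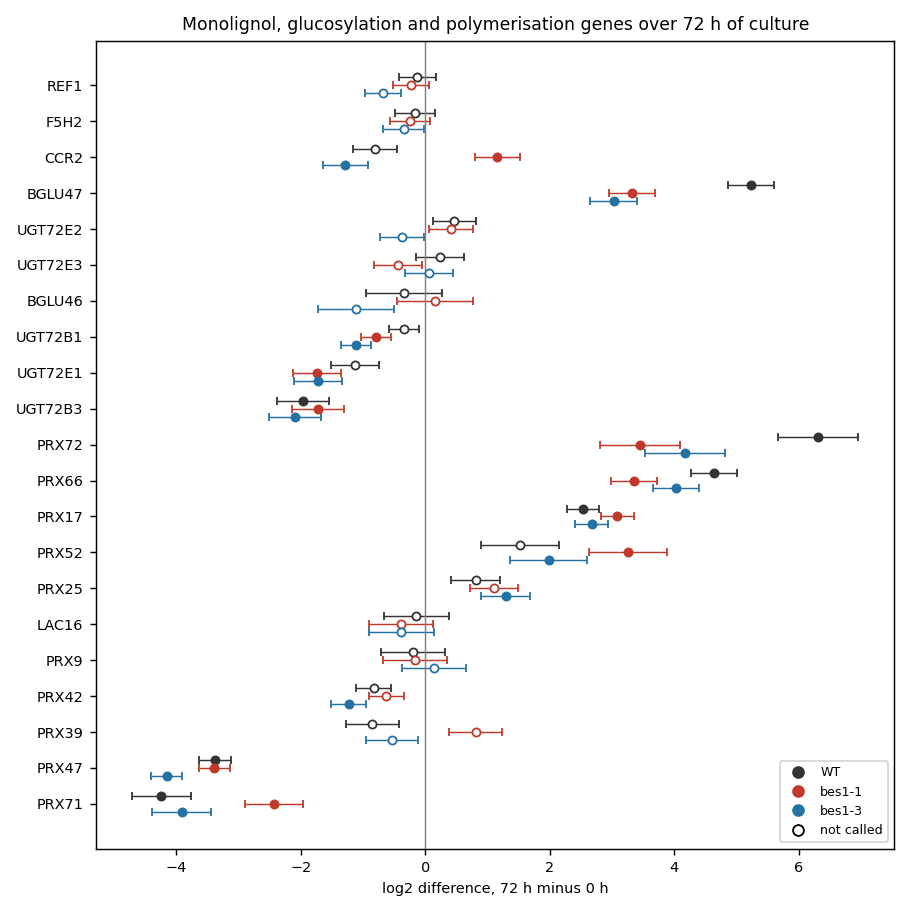
Log2 difference between 72 h and 0 h ± SE for the 21 measured genes of monolignol synthesis, glucosylation and polymerisation in WT, bes1-1 and bes1-3, in that order of role; filled points were called and open points were not. BGLU47, PRX72 and PRX66 lie furthest right and PRX71 and PRX47 furthest left in WT.

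Over these 21 lignin-related genes, which include BGLU46 and BGLU47 and leave out HCT and BGLU45, 4 rose and 3 fell in WT, 6 rose and 5 fell in bes1-1, and 6 rose and 7 fell in bes1-3. Over all probe sets 8.7% and 10.8%, 10.9% and 9.76%, and 10.3% and 11.4% were called higher and lower. With the replicate block 6 rose and 6 fell in WT, 7 and 6 in bes1-1, and 6 and 9 in bes1-3, against 18.9% and 20.8%, 28.5% and 21.9%, and 24.2% and 21.3% of all probe sets. Their median log2 differences were -0.16, -0.17 and -0.38, against -0.03, 0.03 and 0.03 over all probe sets. At 72 h 2 of the 21 were lower than WT in bes1-1, BGLU47 and PRX72, and none was higher, where 0.599% and 0.245% of all probe sets were called lower and higher. With the replicate block 3 were lower and 2 higher, against 6.3% and 7.14%. In bes1-3 none was called in limma at 72 h, and 6 were lower with the replicate block, against 3.46% of all probe sets. At an unadjusted p under 0.05, 5 were lower and 0 higher, where 1957 of all 38408 probe sets passed in either direction. The median log2 differences from WT at 72 h were -0.11 in bes1-1 and -0.20 in bes1-3, against 0.09 and 0.07 over all probe sets. At 0 h none was called in limma in either mutant. At an unadjusted p under 0.05 there was 1 in bes1-1, CCR2, and 0 in bes1-3, where 893 and 364 of all 38408 probe sets passed.

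HCT was compared with 7 other measured BAHD acyltransferases, out of 13. None was called in WT or bes1-1 in limma, and 4 and 2 were lower with the replicate block, where 20.8% and 21.9% of all probe sets were. At an unadjusted p under 0.05 there were 1 and 0, where 10500 and 12113 of all 38408 probe sets passed. In bes1-3, 1 fell, AAT1, an acyltransferase of anthocyanins, by 0.84 ± 0.24 (SE) (adjusted p = 0.0180), where 11.4% of all probe sets were called lower, and 4 fell with the replicate block, against 21.3%. None of the 7 was higher at 72 h in any genotype in either fit. Of the 7, 2 had group means below the mean lower quartile of their arrays in all 6 groups. No BAHD gene was called between a mutant and WT at 72 h, and 0 had an unadjusted p under 0.05.

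The genes most like each member were ranked by Pearson's r over the 18 arrays, after the mean of each replicate number had been subtracted, among 16683 other genes. These correlations are a description: the arrays share the induction and fall into 6 groups. For HCT the first 5 were AT1G05310 (r = 0.974), AT3G22070 (0.965), AT1G49800 (0.961), AT5G18460 (0.960) and AT2G44260 (0.960). For BGLU45 they were AT2G24040 (r = 0.980), AT1G48280 (0.979), AT1G67750 (0.977), AT5G02090 (0.975) and AT1G13830 (0.975). No gene was among the first 5 of both members.

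HCT and BGLU45 had r = 0.915 with each other, which placed BGLU45 at rank 103 for HCT and HCT at rank 255 for BGLU45. PRX72 stood at rank 28 for BGLU45 (r = 0.959) and at rank 315 for HCT (r = 0.859). BGLU47 stood at rank 192 for BGLU45 (r = 0.923) and at rank 706 for HCT (r = 0.795). After quantile normalization 4 of the first 5 for HCT and 3 of those for BGLU45 were among the first 5 again, and without replicate 1 there were 2 and 3.

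**Figure D5:**
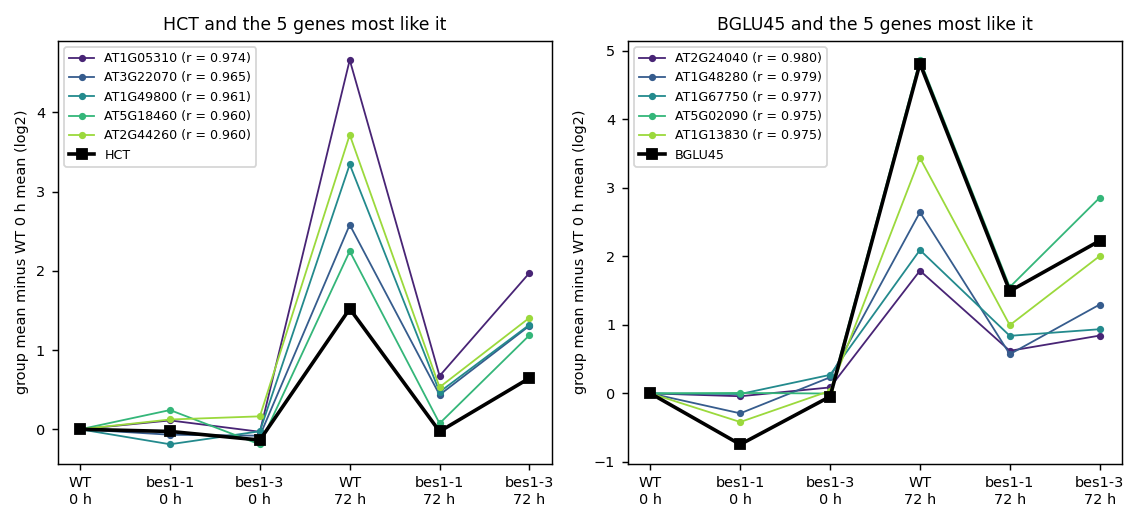
Group means minus the WT 0 h mean, in log2 signal, for HCT (left) and BGLU45 (right) with the 5 genes most like each over 18 arrays; lines join the 6 groups of genotype and time in a fixed order and mark no time course. In cultured bes1-1 HCT lies at -0.03 and the genes like it at 0.07 to 0.67, and BGLU45 lies at 1.49 and the genes like it at 0.57 to 1.55.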

How the data were processed

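The authors deposited a table of log2 signal with a value for each probe set on each array; the base was inferred from the range of the values. Affymetrix Expression Console was used, per the submitters' processing notes, while its version, the background correction and the normalization are not stated in the sources at hand. The platform table listed 17481 of 38408 probe sets, 16722 with 1 gene and 759 with several. Loci in TAIR10.1 were found for 16574 of those with 1 gene. That gene table gave the loci by which listed genes were matched to probe sets, the number of BGLU genes, and neighbouring and overlapping loci. A probe set without a locus could not be matched to a listed gene in this way.

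The fit used limma 3.58.1 (lmFit, eBayes; R 4.3.3), with 6 group means over 18 arrays and 12 residual degrees of freedom, after a test on simulated data. P-values were adjusted by Benjamini-Hochberg over all probe sets and called below 0.05. The number of arrays limits the precision. HCT and BGLU45 were tested in the bes1-3 induction and at 0 h. The members and gene lists were chosen with earlier results of these data known. Named genes were the members, every measured gene of the lignin lists, other BGLU and BAHD genes called in a comparison described, and the 5 genes most like each member. IRX15, IRX15-L, OPS and SPCH are named as markers. Alternatives were the replicate number as a block, 3 other scalings, a filter on low values, replicates 2 and 3 alone, the compared groups alone, eBayes with trend and robust settings, and leaving out each array.

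Same-numbered deviations from the group means correlated above 0.1 for every pair (r from 0.168 to 0.553) in all comparisons except bes1-1 with WT at 0 h (lowest r = 0.0106). By number, r was 0.46 to 0.553 for replicate 1, whose arrays were on a lower scale, and 0.0106 to 0.325 for replicates 2 and 3. Each deviation is from a mean of 3 arrays, so an offset of replicate 1 alone also gives the others correlated deviations. These r values hence cannot show that replicates 2 and 3 were pairs. The main fit used no pairs, and the replicate number entered as a block only as an alternative.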

Additional observations from a re-analysis of the deposited data

Results flagged for a closer look

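For 16 differences in induction of listed genes (mutant minus WT, log2), either the difference passed limma with the replicate number as a block, a fit chosen after seeing the data, or every same-numbered difference had opposite signs in the mutant and WT. None passed without the block. With the block 8.33% of all probe sets passed for bes1-1 and 1.12% for bes1-3. A share over all probe sets is not given for the rule on opposite signs. The 16 were sought in both mutants among the 21 lignin-related genes, the 21 other BGLU genes and the 7 BAHD genes. BGLU46 and BGLU47 are in both of the first lists.

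Lower inductions in the mutants were those of BGLU47, at -1.91 in bes1-1 (block adjusted p = 0.0253) and -2.21 in bes1-3 (0.0422), and of PRX72, at -2.87 in bes1-1 (0.00150) and -2.15 in bes1-3 (0.0293). In bes1-1 they were also those of PRX66 at -1.29 (0.0417), BGLU33 at -1.40 (0.0143) and BGLU41 at -1.36 (0.0217). Less negative inductions in bes1-1 were those of PRX71 at 1.81 (0.00797) and BGLU44 at 1.93 (0.00488). Higher inductions there were those of BGLU28 at 2.15 (0.0491), CCR2 at 1.97 (0.00813) and 5MAT, an anthocyanin malonyltransferase, at 1.02 (0.0315). CCR2 in bes1-1 differed from WT by -2.117 at 0 h and by -0.151 at 72 h. In the same order BGLU28 differed by -1.197 and 0.954, and 5MAT by -0.538 and 0.481. For PRX71 (-0.403 and 1.404) and BGLU44 (-0.126 and 1.804) the larger difference was at 72 h. None of the 0 h differences was called in the main limma fit.

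Opposite signs without passing the test were found for CHAT in bes1-1, at -0.62 (block adjusted p = 0.133), and in bes1-3 for UGT72E2 at -0.84 (0.270), BGLU32 at -1.03 (0.181) and PRX9 at 0.33 (0.404). The last 3 had group means below the lower quartile of the arrays in all 6 groups.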

How the results depend on the processing

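BGLU45 in the bes1-3 induction was called under every alternative run. HCT there was called with the replicate block and lost with median centring (0.62), in the fit of the compared groups alone (0.78) and without 4 of the 6 arrays, over a range of 0.62 to 0.99 with adjusted p from 0.00386 to 0.0723. The block changed no call of HCT or BGLU45. HCT in the untested bes1-1 induction moved to -0.28 with median centring. At 0 h, uncalled in every fit, HCT in bes1-1 turned to 0.039 with median centring, 0.015 with quantile normalization and 0.0057 with 75th percentile scaling, and ran from -0.10 to 0.045 leaving out single arrays; HCT in bes1-3 ran from -0.35 to 0.027. BGLU45 in bes1-1 at 0 h ran from -0.95 to -0.37. BGLU45 in bes1-3 at 0 h turned to 0.18 within replicates 2 and 3 and ran from -0.28 to 0.35. The causes were not tested. Of the 21 lignin-related genes, those lower in bes1-1 at 0 h numbered 1 rather than 0 with the block and all 3 scalings. Those lower in the WT induction numbered 6 rather than 3 with the block, the scalings and replicates 2 and 3, and 5 with the filter or trend. Those higher in bes1-1 at 72 h numbered 2 rather than 0 with the block, 75th percentile or replicates 2 and 3, and 1 with median or quantile scaling. Those lower in bes1-3 at 72 h numbered 6 rather than 0 with the block, 4 with the 75th percentile, 3 with median or quantile scaling and 1 within replicates 2 and 3. Of other BGLU genes, those lower in bes1-1 at 72 h numbered 1, or 2 to 5 under 6 alternatives, and those lower in the WT induction numbered 3, or 6 with the block, 5 with the 75th percentile and 1 with the filter. Over all probe sets the block raised the calls from 7494 to 15250 in WT, 7939 to 19372 in bes1-1 and 8358 to 17502 in bes1-3, and at 72 h from 324 to 5163 in bes1-1 and from 50 to 2807 in bes1-3. At 0 h it raised them from 8 to 41 in bes1-1 and from 3 to 6 in bes1-3. Pairing of replicates 2 and 3 was shown in no comparison, and bes1-1 with WT at 0 h had the lowest r. Calls of other named genes held in 443 of 462 cases, were lost in 19, 13 of them in the fit of the compared groups alone, and reversed in 0.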
